A study of Mus musculus with 2 samples.

Results

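Distal intronic peaks of long genes were taken from DNase-seq peak lists of the mouse frontal cortex. A peak of chromosomes 1 to 19 qualified when its midpoint was over 1000 bp away from every transcription start site (TSS) in GENCODE M21, outside every exon, and inside a protein-coding gene that spans 200 kb or more. Gene models with Gm symbols were left out. Of 28969 peaks in replicate 1, 1477 (5.10%) qualified, and of 64912 in replicate 2, 6563 (10.1%), a mean of 7.60 ± 3.54% (SD, n = 2). They lay in 942 long gene models with a median span of 326 kb.

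The tissue came from female B6CASTF1/J mice, the first-generation offspring of B6 and CAST parents, at 36 days of age. The labels give 1 group with no treatment and 2 biological replicates with separate tissue records but the same donor label, and nothing in the sources used here says whether 2 animals were used. Tissue was assayed whole, so the cell type behind a peak is not known. In DNase-seq, the enzyme DNase I cuts DNA in nuclei at places that nucleosomes do not cover, and a peak is a stretch with many cuts. A footprint is a short protected stretch, such as a bound protein leaves inside a peak.

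Markers of the tissue were read at promoters, within 500 bp of a TSS. The cortical genes Tbr1 and Neurod6 had a promoter peak in both libraries, and Emx1 and Cux2 had one in replicate 2. None of 6 posterior markers (En1, En2, Gbx2, Hoxa5, Hoxb9, Hoxc8) had one in either library. Of the astrocyte markers Gfap and Slc1a3, but not Aqp4, had a promoter peak in both libraries. Olig1 of the oligodendrocyte markers had one in both libraries, and Mbp in replicate 2. The 3 microglial and 3 vascular markers had none. The authors' peak signal moved in whole steps, of 0.0118 in replicate 1 and 0.00971 in replicate 2, within 0.02 steps. If a step is 1 tag scaled per M (mega) tags, the libraries held 84.9 M and 103 M, a 1.21-fold difference. With 2 replicates of 1 group, the smallest two-sided p of an exact sign-flip permutation test is 0.5, so all comparisons are descriptions. The 95% Wilson intervals cover counting error only.

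Introns of long genes hold many distal regulatory elements, among them enhancers, which loop to promoters and raise transcription, and sites of CTCF, a zinc-finger protein that halts cohesin and so anchors chromatin loops. In neurons, many of the longest genes encode synaptic adhesion proteins, receptors, ion channels and their scaffolds. Sequence-specific factors bind such elements through short motifs: EGR and AP-1 factors respond to neuronal activity, CREB binds the CRE, RFX and NFI factors act in neuronal and glial differentiation, and NEUROD-type factors bind E-boxes.

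CTCF was the motif with the largest excess in these peaks, and 7 peaks are shown to make the motif classes visible. Each sequence is the central 200 bases of the peak with the highest replicate 1 signal that has a partner in replicate 2 and a match to that motif under a footprint in both libraries, with 1 peak per gene. All are on the plus strand of GRCm38 (mm10), 5′ to 3′. Capitals mark the match that lies under the footprints, and other matches were left in lower case. Among these, the St3gal3 and Prkcb sequences also hold an exact CTCF match, gcccccttgtgg and gccacctagtgg as printed. Whether a footprint covers those CTCF matches was not examined.
CTCF, Camta1 intron, chr4:151141631-151141830: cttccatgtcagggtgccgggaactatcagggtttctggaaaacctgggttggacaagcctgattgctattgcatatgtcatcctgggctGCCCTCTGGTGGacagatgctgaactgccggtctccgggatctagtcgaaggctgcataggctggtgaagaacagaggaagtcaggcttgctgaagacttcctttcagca
EGR, Amph intron, chr13:19102071-19102270: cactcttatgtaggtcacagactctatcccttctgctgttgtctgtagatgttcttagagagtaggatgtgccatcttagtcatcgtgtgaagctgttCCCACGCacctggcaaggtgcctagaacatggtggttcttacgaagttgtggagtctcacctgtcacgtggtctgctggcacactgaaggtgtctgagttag
NFI, St3gal3 intron, chr4:118083681-118083880: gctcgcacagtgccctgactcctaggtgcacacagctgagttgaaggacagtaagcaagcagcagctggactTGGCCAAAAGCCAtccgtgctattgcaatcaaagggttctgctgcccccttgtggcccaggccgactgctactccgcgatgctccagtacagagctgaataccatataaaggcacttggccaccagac
RFX, Prkcb intron, chr7:122459651-122459850: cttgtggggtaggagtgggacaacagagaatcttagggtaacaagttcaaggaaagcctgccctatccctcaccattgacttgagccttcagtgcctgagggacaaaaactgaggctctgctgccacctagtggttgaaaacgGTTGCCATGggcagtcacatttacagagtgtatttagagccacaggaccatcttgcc
CRE, Pde4d intron, chr13:109822411-109822610: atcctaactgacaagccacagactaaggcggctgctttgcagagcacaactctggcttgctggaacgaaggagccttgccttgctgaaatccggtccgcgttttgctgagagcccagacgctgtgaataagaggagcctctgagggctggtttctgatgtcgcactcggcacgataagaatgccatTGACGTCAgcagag
SP/KLF, Klhl29 intron, chr12:5119801-5120000: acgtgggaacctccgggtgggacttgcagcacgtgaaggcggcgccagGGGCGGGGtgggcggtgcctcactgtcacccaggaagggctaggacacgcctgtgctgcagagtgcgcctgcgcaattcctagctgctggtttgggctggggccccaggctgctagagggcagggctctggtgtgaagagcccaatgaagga
E-box CAGCTG, Ptprt intron, chr2:162659111-162659310: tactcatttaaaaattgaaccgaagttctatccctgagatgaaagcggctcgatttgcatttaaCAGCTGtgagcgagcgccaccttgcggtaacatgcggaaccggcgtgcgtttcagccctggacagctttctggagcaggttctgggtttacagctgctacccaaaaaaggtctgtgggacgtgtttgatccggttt

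The authors' signal of these 7 peaks ran from 2.30 to 4.81 in replicate 1 and from 3.33 to 7.77 in replicate 2. The Camta1 peak was the highest of them in both libraries (4.81 and 7.77), and it lay 2147 bp from the nearest TSS. The Ptprt peak, in a gene for a receptor tyrosine phosphatase, measured 3.55 and 4.52 and lay 1883 bp from one. The Pde4d and Klhl29 peaks lay much deeper, 65290 and 52453 bp from any TSS, with signals of 3.18 and 4.44 for Pde4d and of 2.51 and 4.46 for Klhl29. The Amph peak measured 2.49 and 4.33, the St3gal3 peak 2.72 and 4.74, and the Prkcb peak, in a gene for a protein kinase C, 2.30 and 3.33. All 7 were higher in replicate 2.

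Since CTCF carried the largest excess, 6 more of its matches are printed, those in the peaks of highest replicate 1 signal that met the same conditions in other genes. This set was chosen after the motif values were seen. Each line runs 5′ to 3′ on the strand of the motif, with 10 bases to each side in lower case and the match in capitals.
Pebp4, chr14:69861566-69861597, plus strand: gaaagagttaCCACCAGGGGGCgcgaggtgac
Slc2a13, chr15:91301519-91301550, plus strand: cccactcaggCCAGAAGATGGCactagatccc
Arhgef28, chr13:97939063-97939094, minus strand: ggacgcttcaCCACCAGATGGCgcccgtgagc
Scfd2, chr5:74277934-74277965, minus strand: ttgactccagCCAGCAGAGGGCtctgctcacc
Grk5, chr19:61084704-61084735, minus strand: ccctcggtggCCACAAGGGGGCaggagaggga
Prkce, chr17:86445090-86445121, minus strand: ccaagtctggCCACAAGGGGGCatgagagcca

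The signals of these peaks in replicates 1 and 2 were 4.26 and 5.84 in Pebp4, 3.30 and 4.76 in Slc2a13, and 2.99 and 4.51 in Arhgef28. In Scfd2 they were 2.96 and 3.09, in Grk5 2.91 and 3.72, and in Prkce 2.78 and 3.42. Grk5 and Prkce, a receptor kinase and a protein kinase C gene on different chromosomes, hold the same 12 letters at the match.

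The number of peaks was compared first. Replicate 2 had 4.44-fold more distal intronic peaks of long genes than replicate 1, against 3.43-fold more in introns of protein-coding genes under 200 kb (2917 and 10010), 2.98-fold more intergenic distal peaks (6229 and 18582) and 1.48-fold more within 1000 bp of a TSS (16639 and 24598). Over all peaks the ratio was 2.24. With the replicate 2 list cut to its 28969 peaks of highest signal, as many as replicate 1 had, 1824 qualified in replicate 2 against 1477, a far smaller gap. Scaled to sequence that could qualify (374.9 Mb), long genes held 3.94 peaks per Mb in replicate 1 and 17.5 in replicate 2. Introns of shorter genes held 6.66 and 22.8 per Mb, more in both libraries, and intergenic sequence 5.19 and 15.5, more in replicate 1 and fewer in replicate 2.

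Peaks thinned out with distance from the nearest TSS. Between 1 and 5 kb from a TSS there were 6.59 peaks per Mb in replicate 1 and 25.6 in replicate 2. Between 50 and 100 kb there were 3.44 and 15.6, and beyond 200 kb 1.27 and 10.3 (14 and 114 peaks). The median signal was lower with distance too, from 1.12 and 1.00 at 1 to 5 kb to 0.842 and 0.757 beyond 200 kb. Up to 100 kb from a TSS, introns of shorter genes had more peaks per Mb at the same distance, with 8.07 and 26.3 at 1 to 5 kb and 4.76 and 18.1 at 50 to 100 kb. Along the gene, the ends were richest: the first of 10 equal parts of the gene held 4.65 and 20.5 per Mb and the last 5.34 and 20.7, against 3.85 and 16.1 in the fifth. First introns held 24.4% and 23.2% of the peaks and 21.8% of the sequence.

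**Figure D1:**
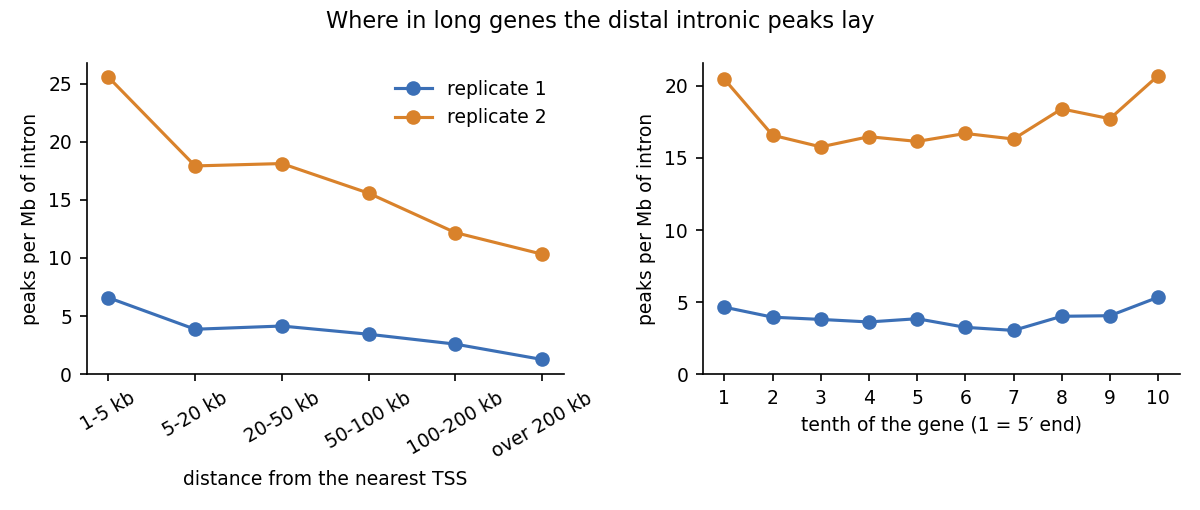
Peaks per Mb of qualifying intron in long genes, by distance from the nearest TSS (left) and by position along the gene in 10 equal parts from its 5′ end (right), with 1 line per replicate. In both libraries the density was highest at 1 to 5 kb, 6.59 and 25.6 per Mb, and at the 2 ends of the gene.

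Pooled over genes of like span, peak density was lower in longer genes. Genes of 200 to 300 kb (410 models) held 5.58 and 21.7 peaks per Mb, those of 300 to 500 kb 4.06 and 18.9, those of 500 to 1000 kb 3.06 and 15.2, and the 53 of 1000 kb or more 2.91 and 12.9. The share of genes with at least 1 peak found in both replicates ran the other way, from 59.8% to 90.6%. Gene by gene the relation of density to span was weak, with a Spearman rho of -0.09 in replicate 1 and -0.14 in replicate 2 over the 942 gene models, which are not independent replicates. At the edge of the span rule, Pcbp3 (200.03 kb), Plcxd3 and Umad1 had 2, 1 and 0 peaks in replicate 1 and 6, 2 and 5 in replicate 2. Just under it, Atp9b, Morc1 and Clec16a had 1, 1 and 0 distal intronic peaks in replicate 1 and 2, 2 and 9 in replicate 2.

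The replicates were then compared peak by peak, a partner being any peak of the other library that overlaps by at least 1 bp. In replicate 1, 1388 of 1477 had a partner (94.0%, 92.6 to 95.1%), where 92.5% of all peaks had one and 94.1% of those in shorter genes. In replicate 2, 1388 of 6563 had one (21.1%, 20.2 to 22.2%), where 40.7% of all peaks had one, 27.3% of those in shorter genes and 31.7% of the intergenic ones. The equal count of 1388 is a coincidence of counting: the replicate 1 peaks matched 1370 distinct replicate 2 peaks, since neighbouring peaks of one list can fall under a single peak of the other.

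The lower partner share in replicate 2 went with lower signal. Each whole list was divided into 4 equal bins by signal. In replicate 2, 8.58% of the peaks of long genes fell in the highest bin, against 14.3% of those of shorter genes. Within bins, the partner shares of long and shorter genes lay within each other's intervals: 2.24% and 2.34% in the lowest bin, 10.95% and 10.8% in the next, 38.2% and 38.2% in the third, and 81.2% (77.7 to 84.2%) and 80.6% (78.5 to 82.6%) in the highest. Intergenic peaks had a higher share in every bin of replicate 2, from 4.47% to 88.4%. In replicate 1 the lowest bin had 85.8% for long genes (82.7 to 88.5%) and 82.7% for shorter ones, and all 80 peaks of the highest bin had a partner.

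**Figure D2:**
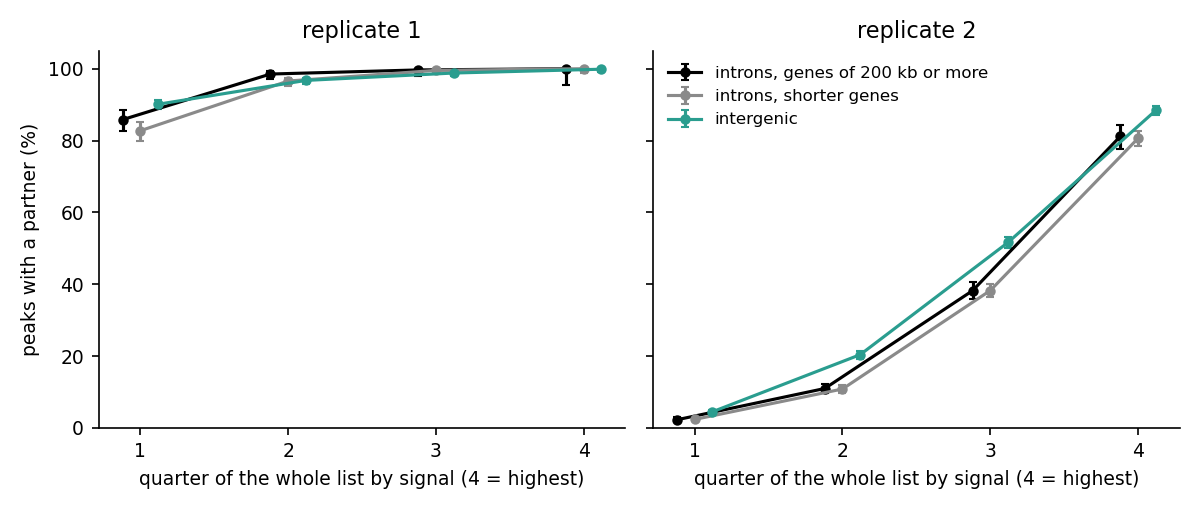
Share of peaks with a partner in the other replicate (y axis, %) by bin of signal over the whole list (x axis, 4 is the highest), with 95% Wilson intervals, for introns of long genes, introns of shorter genes and intergenic distal peaks. In replicate 2 the lines of long and shorter genes coincide, at 38.2% for both in the third bin.

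Many replicate 2 peaks without a partner had a weaker trace in replicate 1. Of the 5175 such peaks in long genes, 2094 (40.5%) overlapped a peak of the authors' longer replicate 1 list, and 2419 (46.7%) held a position with a false discovery rate (FDR) of 0.05 or less in the authors' replicate 1 cleavage table. Of the same peaks 209 (4.04%) held one of 0.001 or less, and 2756 (53.3%) had neither trace. Over all replicate 2 peaks without a partner these shares were 42.8%, 50.5%, 6.11% and 49.5%, so those of long genes lay close to the background. Among the 89 peaks of replicate 1 that lacked a partner, 36 overlapped the longer list of replicate 2, 55 held an FDR of 0.05 or less, and 34 had neither, or 40.4%, 61.8% and 38.2%. Over all such peaks of replicate 1, most of them near a TSS, the shares were 21.3%, 87.0% and 13.0%, and in shorter genes 36.0%, 62.2% and 37.8%. The highest replicate 1 peaks without a partner lay in Gas7 (chr11:67647861-67648080, signal 2.04) and Sipa1l1 (chr12:82387815-82387901, 1.23). In replicate 2 they lay in Nfib, a gene for an NFI factor (chr4:82513181-82513440, 4.96), and Myo1d (chr11:80504121-80504420, 3.69). All 4 were present in the longer list of the other library, with FDR values there of 0.00591, 0.00257, 0.0303 and 0.00486 in the order given.

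Signal at shared peaks was higher in replicate 2. The median signal of all peaks in long genes was 1.04 in replicate 1 and 0.951 in replicate 2, below the 1.20 and 1.11 of shorter genes and the 1.65 and 1.76 of peaks near a TSS. Over the 1388 pairs, the log2 signal in replicate 2 exceeded that in replicate 1 by a median of 0.64 (quartiles 0.39 and 0.88), a 1.55-fold difference, and 96.0% of pairs were higher in replicate 2. This log2 difference was 0.60 in shorter genes, 0.60 in intergenic sequence and 0.74 near TSSs. Across the pairs, which share both libraries and are not independent replicates, the log2 signals had a Pearson r of 0.83.

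The highest peaks of all in long genes lay in Gphn, which encodes gephyrin, the scaffold of inhibitory synapses (chr12:78350861-78351120; 16.6 in replicate 1 and 18.7 in replicate 2), and in the overlapping Cmss1 and Filip1l models (chr16:57391301-57391420; 16.3 and 15.5). The latter was lower in replicate 2. Pieces of 36 bases from the Cmss1 and Filip1l peak occur 10 to 12 times in the assembly and those of the Gphn peak 1 to 7 times, while pieces of the next highest occur 1 time each. The part of repeated sequence in these signals was not tested. Next came Igf1r, the insulin-like growth factor receptor (chr7:68129121-68129320; 5.30 and 6.75), and the Camta1 peak printed above.

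Distal intronic peaks were spread over most long genes rather than gathered in few. In replicate 1, 636 of the 942 gene models held at least 1, and in replicate 2, 907 did. The median per gene was 1 and 5. There were 623 genes with a shared peak, 271 with peaks in replicate 2 alone, 0 with peaks in replicate 1 alone and 35 with none. The 12 genes with the most shared peaks held 9.02% of all shared peaks, and 61 genes held 5 or more. Per Mb, the counts of the replicates were correlated across the 942 genes (Spearman rho 0.61), which are not independent replicates. Promoter peaks in both libraries were found for 76.6% of genes with a shared peak (73.1 to 79.7%), 76.0% of those with peaks in replicate 2 alone and 18 of the 35 with none (51.4%).

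The annotated model of Fgfr2, a fibroblast growth factor receptor, had the most, with 25 peaks in replicate 1 and 70 in replicate 2. This model spans 2961 kb (chr7:130162451-133123350) and overlaps 30 other protein-coding genes, while its CCDS transcripts, which mark agreed coding sequences, span 104 kb. Inside that shorter span lay 1 and 4 of the peaks, and 15 and 41 lay inside shorter protein-coding genes. Its 24 shared peaks therefore describe a 2.9 Mb stretch of chromosome 7 more than the receptor gene. In all genes together, 1.90% and 1.66% of the peaks lay inside a shorter protein-coding gene as well.

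Camta1, a calmodulin-binding transcription activator, came next with 17 and 30 peaks over 945 kb. Its 16 shared peaks lay 195 to 895 kb from the gene's start, and all were higher in replicate 2, where they ran from 0.728 to 7.77 against 0.660 to 4.81. A group of 7 of them lay between 638 and 721 kb from the start, and the 2 highest of the gene in replicate 1, chr4:151141621-151141840 (4.81 and 7.77) and chr4:151157041-151157240 (2.64 and 3.62), were among these. CTCF matches were in 4 of the 17 replicate 1 peaks and 7 of the 30 replicate 2 peaks.

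Pde4d, a cAMP phosphodiesterase, had 13 and 20 peaks in a span of 1504 kb, and all 13 of replicate 1 were shared. They lay 597 to 1483 kb from the gene's start, so the first 597 kb of the gene held no shared peak. Signals ran from 0.672 to 3.18 in replicate 1 and from 1.23 to 4.44 in replicate 2, higher in replicate 2 in 13 of 13. The highest, chr13:109822401-109822620, holds the CRE shown above, and the next, chr13:109776181-109776380 (2.59 and 3.71), holds a CTCF match.

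Maml3, a Mastermind-like coactivator of Notch signalling, had 12 and 23 peaks in 419 kb, the highest density of shared peaks by the rule used (33.5 per Mb). Its 12 shared peaks of replicate 1 matched 9 distinct peaks of replicate 2, or 25.1 per Mb, and counted that way Upp2, Ctif, Sh3pxd2a and Myo18b, each with as many distinct partners as shared peaks, were denser. The 4 nearest the gene's start, 1.68 to 3.20 kb away, measured 1.27, 0.907, 0.695 and 0.577 in replicate 1 and all fell under 1 broad replicate 2 peak of signal 1.69. The highest, chr3:52046961-52047220, measured 1.99 and 3.54. None of its peaks held a CTCF match in either library.

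Auts2, a gene of neuronal development, had 11 and 30 peaks, 10 of them shared, at signals of 0.577 to 1.56 in replicate 1 and 0.903 to 2.76 in replicate 2, and no CTCF match. Trpm3, a cation channel, had 9 and 27, with 8 shared. Ctnna2, the neuronal alpha-catenin, had 8 and 19. Asic2, a proton-gated channel, had 7 and 44, a 6-fold gap, with all 7 shared. The remaining genes with 7 shared peaks were Cdh13 (7 and 26), a cadherin anchored to the membrane by a lipid, Ctif (7 and 15), a translation factor, Dlgap1 (7 and 20), a postsynaptic scaffold, and Gse1 (7 and 32). The CCDS transcripts of Gse1 span 92.9 kb of its 353 kb, and 0 and 2 of its peaks lay inside that span. Dlgap1 had the highest median signal of these 12 genes in replicate 1, 1.94, and its shared peaks all lay between 461 and 738 kb from the gene's start. In Cdh13, 6 of 7 shared peaks were higher in replicate 2. In the other 11 of the 12 genes all were.

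**Figure D3:**
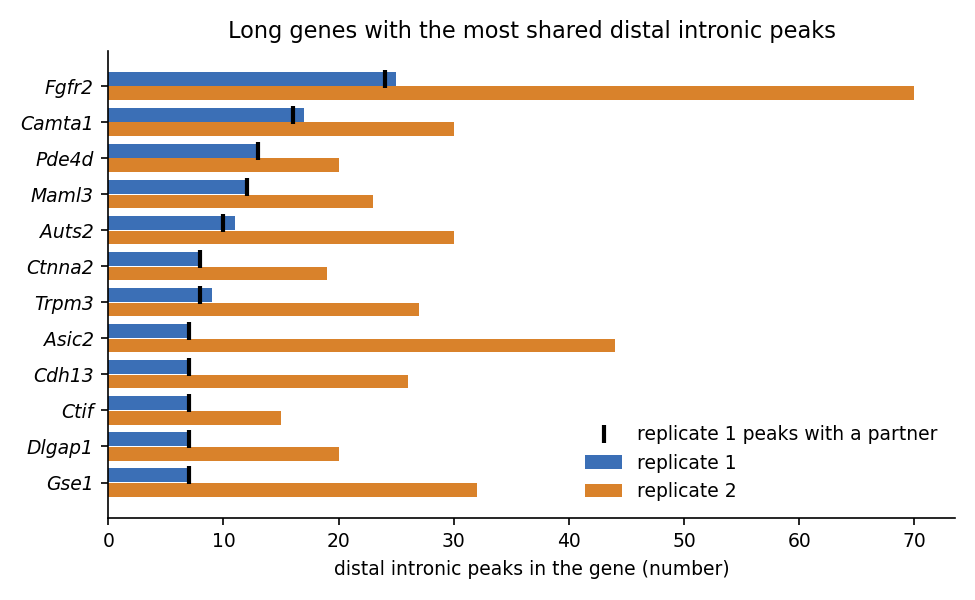
Distal intronic peaks in the 12 long genes with the most shared peaks, by replicate (bars); the tick on each replicate 1 bar marks the number with a partner. Replicate 2 had more in each gene, and nearly all replicate 1 peaks had a partner, as in Camta1 with 16 of 17.

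By density of shared peaks, the next after Maml3 were Upp2 (29.0 per Mb; 6 and 11 peaks), a uridine phosphorylase, Ctif (27.6), Sh3pxd2a (26.7; 5 and 10), an adaptor of invasive membrane structures, Myo18b (26.5; 5 and 12), an unconventional myosin of muscle, and Pebp4 (23.3; 5 and 8). Myo18b and Pebp4 had no promoter peak in either library. Pebp4 held a pair of neighbours 1.1 kb apart, chr14:69861501-69861680 (4.26 and 5.84) and chr14:69862601-69862780 (1.43 and 1.95), both with a CTCF match.

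Long genes were grouped by the role of their products. The lists hold genes picked for role, and their counts are set beside those of all 942 long gene models, 3.94 and 17.5 per Mb. Ion channel genes had the highest density in replicate 1, 6.30 per Mb (73 peaks in 23 genes), and 20.7 in replicate 2, and 21 of the 23 had a shared peak. These densities are pooled over genes. The median over the ion channel genes was 4.00 and 16.0 per Mb, against 3.32 and 16.3 over all long genes. The calcium channel subunits Cacna1a (5 and 8), Cacna1c (5 and 24), Cacna1d (6 and 13) and Cacna1e (6 and 15) each had 5 or more in replicate 1, as did the potassium channel genes Kcnma1 (5 and 20) and Kcnq3 (5 and 6). Kcnh5, a potassium channel, had no peak in either library, although its promoter had one in both.

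Receptor genes for glutamate and GABA stood at the other end in replicate 1, with 1.96 per Mb (19 peaks in 18 genes) and 14.7 in replicate 2, the widest gap of any list, 7.47-fold. Grin2a and Grin2b, subunits of the NMDA receptor, had 0 and 1 peaks in replicate 1 and 12 and 7 in replicate 2. Gria1, of the AMPA receptor, had 2 and 11, and Grid1 1 and 16. Grik4, a kainate receptor, had the most shared peaks, 5 of 5, with 17 in replicate 2. Gabrb1, a GABA-A receptor subunit, followed with 2 and 6, and Gabrb2 and Gabrg3 had 0 in replicate 1 and 4 and 8 in replicate 2.

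Synaptic adhesion and cell surface genes, the longest list with a median span of 906 kb, had 2.49 and 13.1 peaks per Mb (95 and 499 peaks in 39 genes). Both values lay below those of all long genes. Density was lower in longer genes of any role, however, with 3.06 and 15.2 at 500 to 1000 kb and 2.91 and 12.9 at 1000 kb or more. List densities were not adjusted for span. Csmd1, a large complement-related membrane protein, had 6 and 27, and its shared peaks left 1351 kb of the gene without one. Nrxn3, a neurexin and so a presynaptic partner of neuroligins, had 6 and 31. Nlgn1 had 1 and 5, Cntnap2 3 and 14, and Lrrtm4 0 and 1. Axon guidance and growth factor genes had 3.05 and 13.0 per Mb, and Fgf12 (6 and 12) had the most shared peaks. Nrg1, which signals to ERBB4, and Robo1 followed with 4 and 8 each. The CCDS spans of Fgf12 and Nrg1, 286 and 101 kb, are also shorter than their models. They held 1 and 2 of the Fgf12 peaks and 0 and 0 of the Nrg1 peaks.

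Transcription and RNA factor genes had 5.65 and 22.5 per Mb (28 genes), of which Camta1 and Maml3 held 29 of the 80 replicate 1 peaks. The median over the genes of this list was 2.95 and 20.1 per Mb, against 3.32 and 16.3 over all long genes. Without Camta1 the list had 4.74 and 21.7. Rbfox1, a neuronal splicing factor, had 7 and 27, and Myt1l, a neuronal zinc-finger factor, 2 and 21. Signalling enzymes had 4.81 and 20.1, and without Pde4d 4.20 and 21.1. Prkce, a protein kinase C, had 5 and 23. Ppp3ca, the catalytic subunit of calcineurin, had none in either library although its promoter had a peak in both. Scaffold and release genes had 4.13 and 18.8, with Dlg2 at 6 and 36, Ank3 at 7 and 17 and Shank2 at 3 and 22. The glial list had 4.28 and 17.7, and 2.41 and 14.4 without Fgfr2. Msi2, an RNA-binding protein of glia and precursors, had 4 and 7.

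Long genes of other organs, such as Ttn of muscle and Pkhd1 of kidney, had 2.93 and 11.7 per Mb, and 5 of 17 had a promoter peak in both libraries, against 714 of all 942. Ttn had 2 and 2 distal intronic peaks, Pkhd1 3 and 7 and Myo3b 3 and 8, and these 3 genes had no promoter peak in either library. Cdh23, with 4 and 8, had one in both. Dnah7b, an axonemal dynein, had no distal intronic peak.

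**Figure D4:**
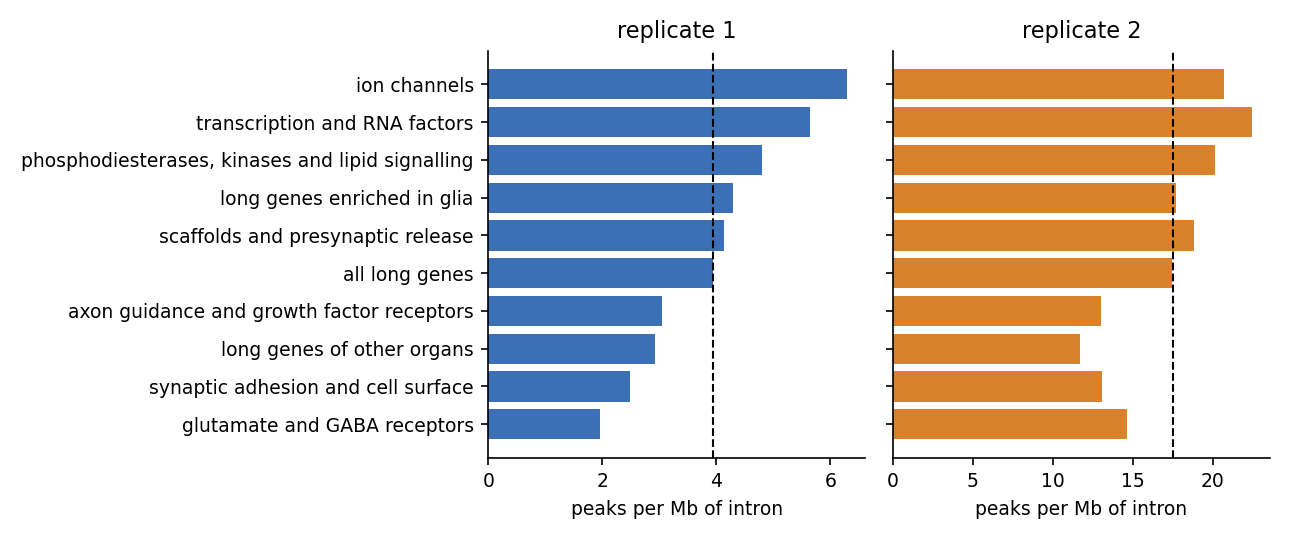
Distal intronic peaks per Mb of qualifying intron (x axis) for the 9 gene lists and all long genes, by replicate; the dashed line marks all long genes, at 3.94 and 17.5. Ion channel genes were highest in replicate 1 at 6.30, and receptor genes lowest at 1.96.

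Footprints overlapped most of these peaks. In replicate 1, 1235 of 1477 (83.6%, 81.6 to 85.4%) held at least 1 footprint of their own library, where 84.0% of all peaks did, and in replicate 2, 5645 of 6563 (86.0%, 85.2 to 86.8%), where 83.8% did. These shares are close to the background. Shorter genes had 87.8% and 87.4%. The share followed signal, from 63.3% and 67.7% in the lowest bin to 100% in the highest bin of both libraries. Footprints per kb of peak were 10.9 in both, against 11.7 and 11.5 in shorter genes. Peaks of long genes had a median GC content of 52.8% and 50.6%, against 41.1% over the qualifying introns and 64.0% and 62.5% in peaks near TSSs. Repeats made up 5.52% and 7.23% of their bases on average and 28.2% of those introns.

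Neighbouring peaks were more frequent in replicate 2. In replicate 1, 8.80% had another peak of the set within 1 kb, and in replicate 2, 17.1%. Within 5 kb the shares were 15.0% and 31.5%. Overlaps between peaks of the same list were few, with 5 and 74 peaks.

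In all, 17 consensus patterns were searched in the central 200 bases of each peak on both strands, exact letters only, and in 1820340 tiles of 200 bases from the same introns outside peaks. They were CTCF (CCANNAGNNGGC), EGR (GCGTGGG), NFI (TGGCNNNNNGCCA), RFX (GTTGCCATG), CRE (TGACGTCA), SP/KLF (GGGCGGGG), AP-1 (TGANTCA), ETS (CCGGAAGT), the E-boxes CAGCTG and CAGATG, T-box (TCACACCT), POU (ATGCAAAT), MEF2 (CTANNNNTAG), FOX (TGTTTAC), SOX (ACAATGG), ROR (TAGGTCA) and homeodomain (TAATTA). In fixed letters no pattern contains another, but a match can hold another pattern across its free positions (N). The printed Arhgef28 match to CTCF, for example, holds CAGATG. Such overlaps were not taken out of the counts. A match describes letters and is not a binding site. Windows of peaks had a mean GC content of 51.9% and 50.2%, and the tiles 41.0%. As a rough comparison, each pattern was also read backwards without complement, which keeps its letter counts but not the order of neighbouring letters. CTCF, NFI, RFX, POU and the CAGCTG E-box thereby gain the pair CG, and CRE and ETS lose it. For these patterns the backward ratio does not show base composition alone.

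CTCF matches were in 284 of the 1477 replicate 1 peaks (19.2%, 17.3 to 21.3%) and 599 of the 6563 replicate 2 peaks (9.13%, 8.45 to 9.85%), against 0.755% of tiles, a ratio of 25.5 and 12.1. The backward pattern gave 4.85 and 2.54. Of the matches, 81.8% and 78.7% lay under a footprint, while footprints covered 12.1% and 12.2% of the bases searched. They occurred in 218 and 374 genes. Their direction relative to the gene was near even, with 47.0% (41.3 to 52.8%) and 45.9% (41.9 to 49.9%) on the gene's own strand.

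Peaks with a CTCF match were shared between the libraries more often than those without. Their number was 2.11-fold higher in replicate 2, while that of peaks without a match was 5.0-fold higher. In replicate 2, 46.1% (42.1 to 50.1%) of peaks with a match had a partner, against 18.6% (17.7 to 19.7%) of those without. In replicate 1 the shares were 97.5% and 93.1% (91.5 to 94.4%). Their median signal was higher, 1.26 and 1.32 against 0.990 and 0.922. Within bins of signal the order of the partner shares was the same in replicate 2: 30 of 158 peaks with a match (13.6 to 25.8%) against 10.3% (9.10 to 11.7%) without in the second lowest bin, 53.1% (46.3 to 59.8%) against 36.1% (33.6 to 38.6%) in the third and 92.3% (86.7 to 95.6%) against 77.4% (73.2 to 81.2%) in the highest. In the lowest bin only 4 of 90 peaks with a match had a partner (4.44%), against 2.14% without, and the intervals overlapped. At shared peaks the log2 signal was higher in replicate 2 by a median of 0.58 with a match (277 pairs) and 0.65 without (1111 pairs).

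CTCF matches were fewer than in shorter genes, where 28.6% and 15.2% of distal intronic peaks held one. The share grew with signal: in long genes it ran over the 4 signal bins from 9.57% to 46.3% in replicate 1 and from 4.29% to 25.2% in replicate 2. At like signal it was still below that of shorter genes in 3 of 4 bins of replicate 1 and in 4 of 4 of replicate 2. In the second lowest bin it was 19.5% (16.4 to 23.0%) against 26.0% (23.4 to 28.9%) in replicate 1, and 7.09% (6.10 to 8.23%) against 11.2% (10.1 to 12.3%) in replicate 2. In the highest bin of replicate 1, the exception, it was 46.3% (35.7 to 57.1%) against 42.2%.

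Among the other patterns, EGR matches were in 4.20% and 3.20% of peaks (10.6 and 8.11 times the tiles), but its backward pattern also reached 4.42 and 3.43. NFI matches were in 2.64% and 1.94% (10.6 and 7.77), the backward pattern in 0 peaks (which allows up to 0.203% and 0.0457%), and 47.5% and 65.6% of NFI matches lay under a footprint. RFX matches reached 5.74 and 5.70 times the tiles (17 and 75 peaks) and CRE matches 4.93 and 4.28 (7 and 27 peaks). Under a footprint lay 39.7% and 47.9% of EGR matches, 33.3% and 46.3% of RFX matches and 14.3% and 37.9% of CRE matches. Footprints covered 12.1% and 12.2% of the bases searched, and the printed examples were chosen to lie under one. For SP/KLF the backward pattern was the higher one, 5.46 and 3.90 against 5.04 and 3.17. That backward pattern, GGGGCGGG, lies with the forward one inside the same stretch GGGGCGGGG. The comparison therefore cannot separate the motif from its letters. Of SP/KLF matches, 10% and 34.9% lay under a footprint. The CAGCTG E-box was in 295 peaks of replicate 1 and 1318 (20.1%) of replicate 2. Its ratio was 2.88 and 2.90, and that of its backward pattern 3.73 and 2.00. The backward form, GTCGAC, holds a CG pair that CAGCTG lacks, so this comparison does not isolate composition. Of CAGCTG matches, 15.9% and 22.9% lay under a footprint.

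The CAGATG E-box and AP-1 had smaller ratios but backward patterns under 1. CAGATG was in 23.6% and 27.0% of peaks, 1.59 and 1.82 times the tiles, and its backward pattern 0.739 and 0.670 times. AP-1 was in 10.8% and 14.7%, 1.78 and 2.41 times, and its backward pattern 0.600 and 0.872 times. Among peaks at or above the median signal of the whole list, the AP-1 ratio was 0.959 in replicate 1 (22 peaks) and 2.30 in replicate 2 (317 peaks). Of AP-1 matches, 9.88% and 16.2% lay under a footprint. In replicate 2 both were more frequent in peaks without a partner than with one, 27.7% against 24.2% for CAGATG and 15.4% against 12.2% for AP-1, the reverse of CTCF with 6.24% against 19.9%. In replicate 1, where 89 peaks had no partner, both were less frequent without one, 20.2% against 23.8% and 5.62% against 11.2%. MEF2, FOX, SOX, ROR, POU and homeodomain matches were rarer in peaks than in tiles in both libraries, with ratios from 0.319 to 0.793. Backward patterns were as rare or rarer for homeodomain (0.211 and 0.291, against 0.319 and 0.380) and FOX (0.506 and 0.699, against 0.597 and 0.763) and close for MEF2 (0.682 and 0.773, against 0.603 and 0.793). For SOX (0.886 and 0.726, against 0.626 and 0.528) and ROR (0.915 and 1.01, against 0.596 and 0.514) the backward patterns were less rare. POU was mixed, with 0.448 and 0.807 against 0.654 and 0.770.

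**Figure D5:**
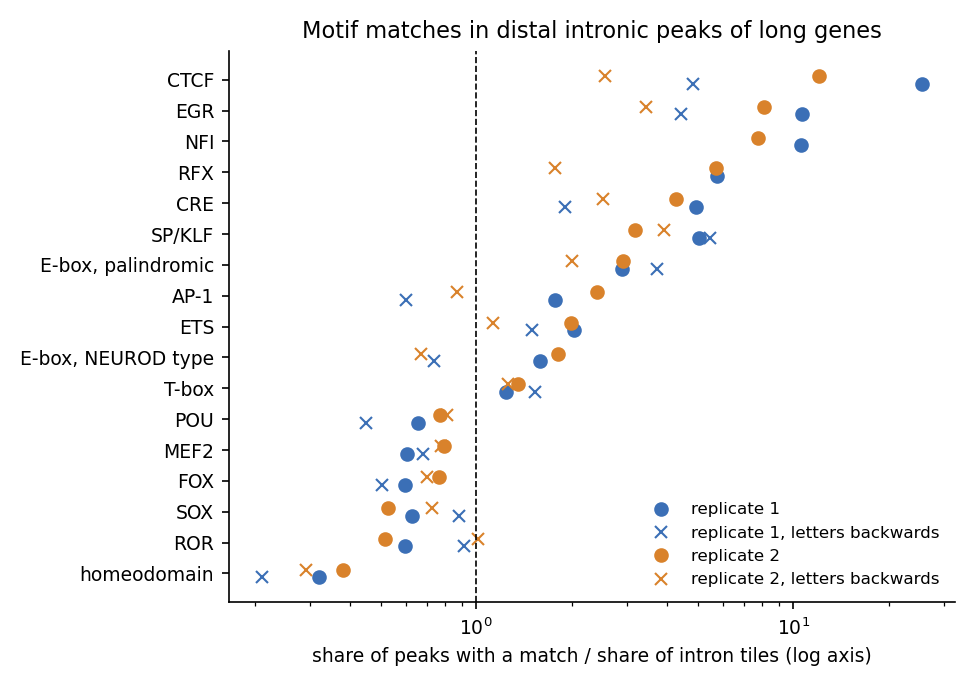
Share of distal intronic peaks of long genes with a match divided by the share of intron tiles (log axis), for 17 patterns and both replicates; crosses show the same letters read backwards, and a pattern with no backward match has no cross. CTCF stands highest at 25.5 and 12.1, with its backward pattern at 4.85 and 2.54.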

How the data were processed

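DNase-seq files of 2 libraries were used. The authors deposited for each library 2 peak lists, a footprint list and a cleavage table, on mm10 per the labels. The peak signal is a depth-normalized density deposited by the authors, and the p-value column of the cleavage table, deposited by the authors, is an FDR. Aligner, peak caller and thresholds: not given in the sources used here. As main list, that with fewer peaks was taken. Peaks were classed by midpoint with GENCODE M21, and sequence came from GRCm38. Gene members, lists and motifs were chosen with earlier results of these data known. Named genes were the 12 with the most shared peaks, the 6 densest among those with 3 or more shared, and per list the 2 with the most shared and the longest without a peak. Named peaks were, per library, the 3 highest and the 2 highest without a partner; other genes named from the lists were chosen for their role, after their values were seen. Of the listed genes, 11 did not meet the span rule. Overlap needed 1 bp. With 2 replicates no exact test over samples could pass 0.05, so values are described, with 95% Wilson intervals. Numbers were computed with Python 3.11.15, numpy 2.4.6, pandas 2.3.3 and scipy 1.17.1. The overlap, class, footprint and motif code was tested on simulated data. Alternatives were other lists, overlaps, distances, spans, windows and signal ranks. Some listed genes are not reported here.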

Additional observations from a re-analysis of the deposited data

How the results depend on the processing

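The main results were recomputed under other settings. Of 102 values, 73 stayed within the spread used, 29 moved and 0 reversed. That spread was 1 SD over replicates, the counting interval or the quartiles, and 1.5 times for counts. The 73 are not a measure of stability. With 2 replicates, leaving one out keeps the list share and the footprint share within 1 SD by construction. For the partner share of long minus shorter genes the SD was 4.24 around -3.13, and all 11 settings stayed within it. The mean number of peaks per library, 4020, was 9745.5 with the longer peak lists, 6323 and 2067.5 with gene spans of 100 and 400 kb, 1305.5 with only the highest 50% by signal and 1650.5 with equal list lengths, and ranged from 1477 to 6563 when one replicate was left out. Their share of the list, 7.60%, was 12.1% and 3.86% with the spans of 100 and 400 kb. The replicate 1 share with a partner, 94.0%, was 89.6% with the longer lists, 64.8% when at least 50% of both peaks had to overlap, 96.3% at 400 kb, 99.5% with the highest 50% and 68.9% with equal lengths. The replicate 2 share, 21.1%, was 28.5%, 14.7%, 19.7%, 16.5% and 55.2% in the same order, and 22.5% at 100 kb. The share with a footprint, 84.8%, was 65.04% with the longer lists, 98.6% with the highest 50% and 91.2% with equal lengths. Genes with a shared peak, 623, numbered 1234 and 250 at 100 and 400 kb and 268 with the highest 50%. The CTCF ratio, 18.8 as a mean over the replicates, was 32.5 with the highest 50%, 36.9 in windows of 100 bases and 3.70 with the pattern read backwards, an alternative that was added later, with the data seen. Longer lists, other spans and fewer peaks change by construction which peaks are counted; for the other moved values the cause was not tested.

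The partner share of long minus shorter genes, a mean of -3.13 percentage points, stayed negative in every setting, but in replicate 1 it was -0.13 and was positive with a distance of 500 bp (0.64), spans of 100 kb (0.31) and 400 kb (2.68) and the highest 50% (0.33). With equal list lengths it was -7.49 in replicate 1 and -1.48 in replicate 2, against -0.13 and -6.12 with the lists as deposited. Classes of peaks were compared within each library. No paired analysis was possible because the labels give no other group whose samples could be paired with these. Library depth and the number of peaks cannot be told apart in 2 libraries.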
